A study of Mus musculus with 2 samples.

Results

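The genes examined were 9 that carry, make or break down retinoic acid, the active form of vitamin A: Stra6, Crabp1, Crabp2, Rdh10, Dhrs9, Aldh1a1, Aldh1a2, Aldh1a3 and Cyp26b1. They were chosen by symbol, for their place in retinol uptake, oxidation and breakdown, and all 9 were found among the 50559 genes of both count tables. The RNA came from live GFP-positive cells sorted from dorsal skin of mice aged 21 days after birth, when the follicles rest (telogen). The mice carried the genotype Polr2b.fl.fl.GFP; K14Cre, in which the Cre recombinase is driven by the keratin 14 promoter, active in basal epidermis and the follicle lineages that descend from it. Both libraries (n = 2) belong to 1 group, and there is no control, so every animal shared this genotype and no condition could be compared. The labels name the replicates without saying whether they came from separate animals or pools. A difference between them may be technical or may lie in the animals.

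Retinol reaches cells bound to a plasma carrier, and Stra6 is the membrane receptor that takes it up from that carrier. Dehydrogenases of the short-chain family, Rdh10 above all and also Dhrs9, oxidize retinol to retinaldehyde, and the Aldh1a enzymes oxidize retinaldehyde irreversibly to retinoic acid. Inside the cell Crabp1 and Crabp2 bind retinoic acid, Cyp26b1 hydroxylates it for disposal, and receptors of the Rar and Rxr families carry its signal to genes. In skin, retinoids are known for their influence on keratinocyte differentiation, sebaceous glands and the hair cycle.

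Of the Aldh1a genes among the 9, Aldh1a2 was lower and Aldh1a3 higher in the second library. Stretches before start sites are shown because Aldh1a1, Aldh1a2 and Aldh1a7, a close relative of Aldh1a1 that is not among the 9 genes, share short elements there. A link between these elements and the library ratios was not tested. The stretches run from 150 to 11 bases before the RefSeq start on build GRCm38.p6, 5′ to 3′ on the gene's strand, at chr19:20601818-20601957 (plus strand) for Aldh1a1 (its downstream listed start), chr19:20727567-20727706 (minus strand) for Aldh1a7 and chr9:71215639-71215778 (plus strand) for Aldh1a2. Capitals mark every match to ATGCAAAT, the octamer, and to CCAAT.
Aldh1a1: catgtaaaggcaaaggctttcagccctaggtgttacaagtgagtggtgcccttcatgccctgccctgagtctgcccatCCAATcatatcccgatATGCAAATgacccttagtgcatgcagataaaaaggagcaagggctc
Aldh1a7: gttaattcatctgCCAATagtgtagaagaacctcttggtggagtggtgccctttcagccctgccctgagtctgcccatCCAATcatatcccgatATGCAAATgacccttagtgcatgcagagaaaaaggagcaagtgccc
Aldh1a2: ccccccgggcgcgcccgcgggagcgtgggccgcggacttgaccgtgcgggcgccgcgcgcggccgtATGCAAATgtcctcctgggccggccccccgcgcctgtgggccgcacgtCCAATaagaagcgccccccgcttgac
In Aldh1a1 and Aldh1a7 the octamer began 56 bases before the start and a CCAAT 72 bases before it, and the stretches were identical at 98 of 140 positions. Aldh1a2 held the octamer 84 bases and CCAAT 36 bases before the start, in the opposite order, and matched Aldh1a1 at 29 of 140 positions. Searched on both strands over 250 bases before each start, ATGCAAAT was found in 1.60% and CCAAT in 33.8% of the 32851 windows of the RefSeq table, and both together in 0.767%. The matches to these motifs do not overlap each other in the stretches shown. RefSeq windows were matched for 6 of the 9 genes, in 10 windows. Aldh1a3, Crabp2 and Rdh10 had no window, so whether Aldh1a3 holds these elements is not known here. The window of the upstream listed start of Aldh1a1 held neither ATGCAAAT nor CCAAT. The hexamer AGGTCA, a core letter string of retinoic acid response elements, was found in 14.0% of all windows and, among the 9 genes, in that of Dhrs9, where it lay on the minus strand 88 bases before the start. ATGCAAAT and CCAAT were picked after the sequences had been seen, and a match is a description of letters, not of binding.

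Replicate 1 held 36692204 counts and replicate 2 held 33489967. Levels of 1 gene are given as CPM, counts per 1e6 counts of the library, and levels of different genes as TPM, which also divides by the deposited gene length. Values are given as mean ± SD over both libraries (n = 2), and intervals cover counting error only. Keratin genes identified the sorted epithelium, with Krt5 at 3997 and 6249 CPM, but RNA of other cells was abundant too, with Col1a1 of fibroblasts at 5588 and 2620 CPM and C1qb of macrophages at 1206 and 1214 CPM. Xist had 112587 counts in replicate 1 and 11 in replicate 2, so the libraries also differed in sex-linked RNA and were not repeats of the same cells. Sex cannot be told apart from the other differences between the replicates. In bulk RNA fewer cells of a type and less RNA per cell cannot be told apart.

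As a set, the 9 genes were expressed at low to middling levels. Their CPM summed to 73.3 and 55.4 in replicates 1 and 2. Of the 9, 8 reached 1 CPM in both libraries, beside 31.3% of all genes of the files, and Stra6 was the exception. Cyp26b1 alone reached 10 CPM in both libraries, beside 18.8% of all genes. Per length, they ran from Crabp2 at 29.8 ± 5.96 TPM, at the 80.3 percentile of the 23690 genes with 10 or more counts, to Stra6 at 0.744 ± 0.646 TPM, at the 22.0 percentile. Their median was 4.68 TPM.

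The order of the levels per length was Crabp2, Rdh10, Aldh1a1, Cyp26b1, Crabp1, Aldh1a2, Dhrs9, Aldh1a3 and Stra6. Crabp2 stood clear of Rdh10, with its lower library at 25.6 TPM against 9.62 TPM for the higher library of Rdh10, and Rdh10 stood clear of Aldh1a1. From Aldh1a1 down to Dhrs9, each gene's range over the libraries overlapped that of the next, so these neighbours were not separated by their spread. Aldh1a1 and Cyp26b1 overlapped narrowly, at 6.45 and 6.50 TPM. Dhrs9 and Aldh1a3 did not overlap, at 1.92 and 1.81 TPM, and Aldh1a3 and Stra6 did.

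The deposited length decided part of this order. Cyp26b1 was given 12481 bases, 2.78 times its longest coding transcript in GENCODE M21, which has 4495 bases, while Rdh10 was given 2295 bases against 3587. With the M21 lengths Cyp26b1 moved from place 4 to place 2, from 2.05 to 5.68 CPM per kilobase, and Rdh10 moved from place 2 to place 4, from 3.75 to 2.40 CPM per kilobase. Crabp2 stayed first at 11.6 CPM per kilobase and Stra6 last at 0.428. This alternative was chosen after seeing the data.

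**Figure D1:**
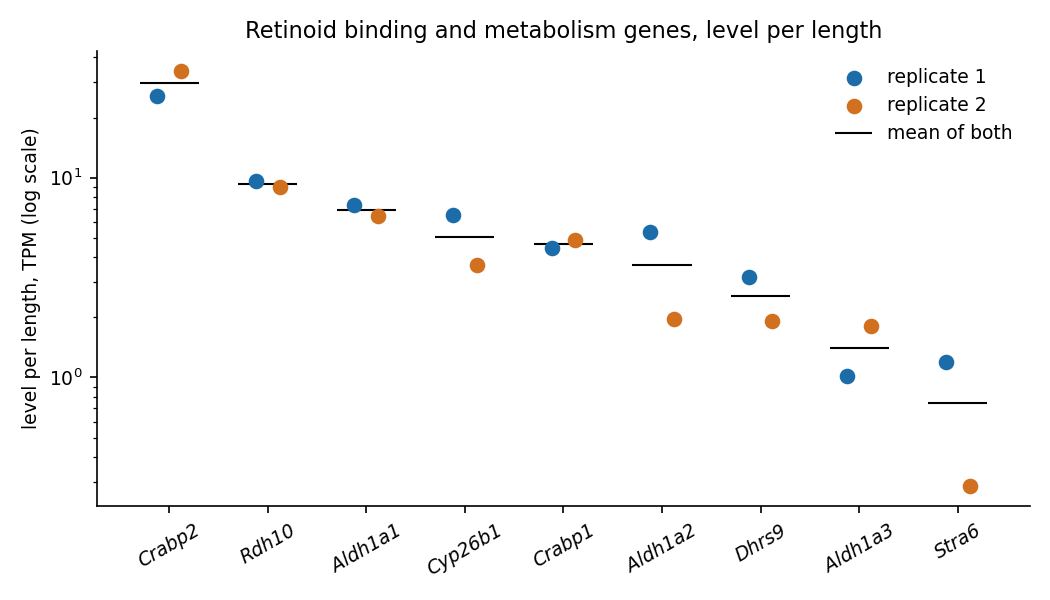
Level per length (TPM, log axis) of each of the 9 genes in replicate 1 (blue) and replicate 2 (orange), with the mean of both as a line, ordered by the mean. Crabp2 stands above the rest at 25.6 and 34.0 TPM, and Stra6 is lowest at 1.20 and 0.287 TPM.

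The libraries differed most in Stra6 and Aldh1a2, both lower in replicate 2. The test was the exact two-sided binomial test of each gene's counts against the ratio of the library totals, with Benjamini-Hochberg adjustment over 23690 genes at 0.05. It compares these libraries and covers counting error only. Of the 9 genes, 4 were lower in replicate 2 (Stra6, Aldh1a2, Cyp26b1 and Dhrs9), where 27.2% of all tested genes were lower, and 2 were higher (Crabp2 and Aldh1a3), where 16.9% of all were higher. The remaining 3, Crabp1, Rdh10 and Aldh1a1, did not pass. Over the 9 genes the median log2 ratio, with replicate 2 as numerator, was -0.17, and over all tested genes it was -0.07. None of the 9 passed edgeR's exact test, which includes the spread between the libraries, with 2 at an unadjusted p under 0.05 (Stra6 and Aldh1a2) beside 1672 of all 23690 genes, and that test called 0.0844% of all genes higher and 0.182% lower.

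Scaling moved these calls. With TMM factors the same 4 genes were lower and the same 2 higher, while over all genes the split changed from 3993 higher and 6443 lower to 5374 higher (22.7%) and 5069 lower (21.4%). When the libraries were scaled to 15 basal and junction keratinocyte genes, which shifts log2 ratios without a pseudocount by -0.50, none of the 9 was higher and 6 were lower, with Rdh10 and Aldh1a1 added to the 4. Over all tested genes 2.11% were then higher and 67.2% lower, so 6 of 9 lower is near that background. Crabp2 then had a log2 ratio of -0.08 in place of 0.39 and Aldh1a3 one of 0.27 in place of 0.66, and neither passed. Stra6, Aldh1a2, Cyp26b1 and Dhrs9 were thus lower in replicate 2 under each of these scalings.

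**Figure D2:**
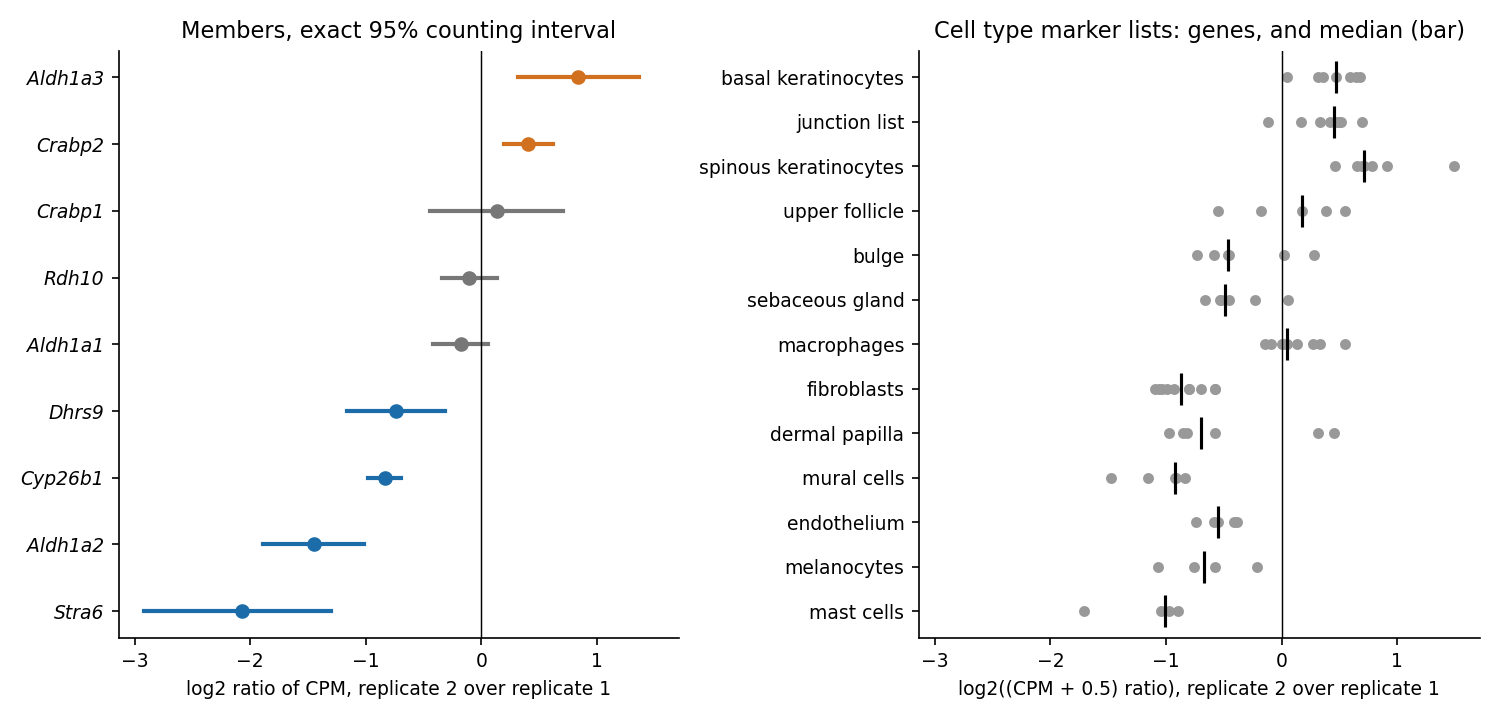
Left, log2 ratio of CPM between replicate 2 and replicate 1 for each of the 9 genes, with the exact 95% counting interval, blue where lower and orange where higher by the exact binomial test and grey where not called. Right, log2 ratio of CPM + 0.5 for marker genes of cell types (points, genes with 10 or more counts) and the list median (bar). Stra6, Aldh1a2, Cyp26b1 and Dhrs9 lie below 0, as do all 10 fibroblast and all 5 mural cell genes.

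Uptake of retinol was represented by Stra6 at 78 counts in replicate 1 and 17 in replicate 2, or 2.13 and 0.508 CPM. It was 4.19-fold lower in replicate 2 (exact 95% interval 2.46 to 7.55, exact binomial test, adjusted p = 1.21e-08), the greatest difference among the 9 genes. By edgeR's exact test its adjusted p was 0.194. In replicate 2 Stra6 lay below the detection limit of 1 CPM, which corresponds to 33.5 counts there, so its ratio rests on few counts.

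The carriers of retinoic acid differed in level. Crabp2, which delivers retinoic acid to its nuclear receptors, had 341 counts in replicate 1 and 413 in replicate 2, or 9.29 and 12.3 CPM. It was 1.33-fold higher in replicate 2 (exact 95% interval 1.15 to 1.54, exact binomial test, adjusted p = 0.000440). Crabp1, its relative, had 53 counts in each library, or 1.44 and 1.58 CPM, a ratio of 1.10 with an interval of 0.734 to 1.63. Per length Crabp2 exceeded Crabp1 5.73-fold in replicate 1 and 6.94-fold in replicate 2. The proportion in replicate 2 was 1.21 times that in replicate 1, with an interval of 0.789 to 1.86 that needs no scaling, so no difference was detectable at this depth.

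Of the retinol dehydrogenases, Rdh10, the main enzyme of this step in the embryo, was steady at 327 and 278 counts, or 8.91 and 8.30 CPM. Its ratio was 0.931 with an interval of 0.791 to 1.10. Dhrs9 had 133 counts in replicate 1 and 73 in replicate 2, or 3.62 and 2.18 CPM, and was 1.66-fold lower in replicate 2 (exact 95% interval 1.24 to 2.24, exact binomial test, adjusted p = 0.00163). Rdh10 exceeded Dhrs9 per length 3.02-fold in replicate 1 and 4.67-fold in replicate 2.

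The 3 Aldh1a enzymes diverged from each other. Aldh1a1 had 326 counts in replicate 1 and 263 in replicate 2, or 8.88 and 7.85 CPM, with a ratio of 0.884 and an interval of 0.748 to 1.04. Aldh1a2, the enzyme that makes most retinoic acid in the early embryo, had 179 and 60 counts, or 4.88 and 1.79 CPM. It was 2.72-fold lower in replicate 2 (exact 95% interval 2.02 to 3.71, exact binomial test, adjusted p = 1.02e-11), with an adjusted p of 0.370 by edgeR's exact test. Aldh1a3 went the other way, with 51 counts in replicate 1 and 83 in replicate 2, or 1.39 and 2.48 CPM, 1.78-fold higher in replicate 2 (exact 95% interval 1.24 to 2.58, exact binomial test, adjusted p = 0.00411).

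The mixture of Aldh1a RNAs therefore differed between the libraries. Of the summed TPM of the 3 genes, Aldh1a1 made up 53.4% in replicate 1 and 63.1% in replicate 2. The share of Aldh1a2 was 39.1% and 19.2%, and that of Aldh1a3 was 7.42% and 17.7%. Aldh1a2 exceeded Aldh1a3 5.27-fold per length in replicate 1 and 1.09-fold in replicate 2, a 4.83-fold lower proportion in replicate 2 (exact 95% interval 3.004 to 7.85) that no scaling of the libraries can alter. Aldh1a1 was the largest of the 3 in each library.

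Aldh1a7 is the gene most like Aldh1a1 in sequence, which bears on how their reads are told apart. Their longest coding transcripts in GENCODE M21 were 88.8% identical over 2036 aligned bases, and 151 of 2309 windows of 50 bases in Aldh1a1 occurred exactly in Aldh1a7. No window of 150 bases, the read length, was shared. Aldh1a7 had 143 and 190 counts, or 3.90 and 5.67 CPM, and was 1.46-fold higher in replicate 2 (exact binomial test, adjusted p = 0.00225), while Aldh1a1 did not pass. Per length Aldh1a1 exceeded Aldh1a7 1.55-fold in replicate 1 and was 0.944 times its level in replicate 2, and with the M21 lengths it exceeded Aldh1a7 in replicate 2 as well, 1.21-fold. The Aldh1a1, Aldh1a2 and Aldh1a3 transcripts were 69.0 to 70.2% identical to each other, and Crabp1 and Crabp2 71.2%, over their aligned parts. Windows were taken from the longest M21 coding transcript of each of the 9 genes. Aside from Aldh1a1, and from 9 windows of Dhrs9 that recur in unrelated genes, no 50-base window occurred in transcripts of another gene. No M21 exon of another gene overlapped theirs. The deposited lengths of Cyp26b1, Stra6 and Aldh1a1 exceed these transcripts, and windows outside the transcripts were not checked.

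**Figure D3:**
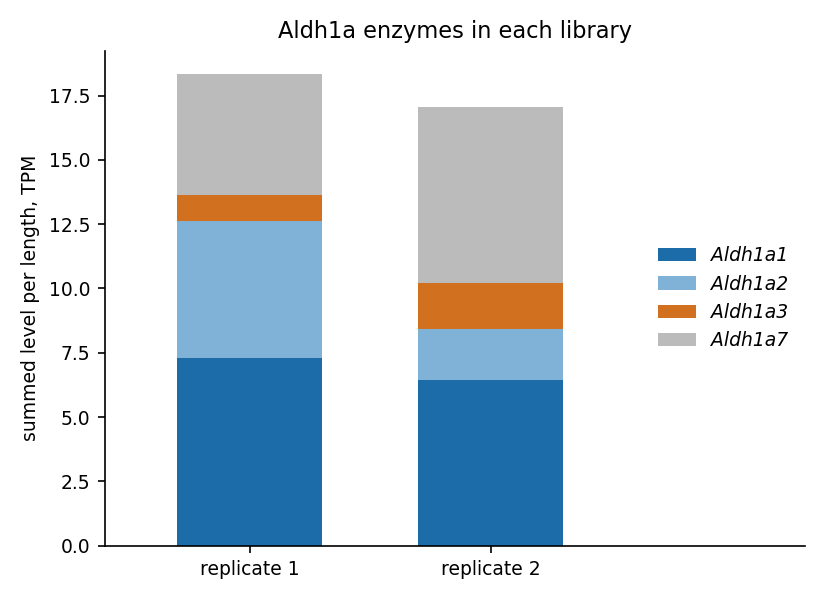
Summed level per length (TPM) of the Aldh1a enzymes in each library, stacked by gene, with Aldh1a7 in grey as the close relative of Aldh1a1. The Aldh1a2 part is 5.34 TPM in replicate 1 and 1.96 TPM in replicate 2, and the Aldh1a3 part is 1.01 and 1.81 TPM.

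Breakdown was represented by Cyp26b1, the member with the most counts. It had 1201 counts in replicate 1 and 614 in replicate 2, or 32.7 and 18.3 CPM. It was 1.79-fold lower in replicate 2 (exact 95% interval 1.62 to 1.97, exact binomial test, adjusted p = 1.27e-31), with an adjusted p of 0.933 by edgeR's exact test. The other enzymes of its family were close to absent, with 1 count in replicate 1 and none in replicate 2 for Cyp26a1, and none and 7 for Cyp26c1. The limit for a count of 0 was set at 3 counts, which are 0.0818 CPM (replicate 1) and 0.0896 CPM (replicate 2).

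Marker genes of other cell types moved between the libraries as well. All 10 fibroblast genes were lower in replicate 2, at a median log2 ratio of -0.87 and summed levels of 13182 and 6546 CPM in replicates 1 and 2. All 5 mural cell genes were lower, at a median of -0.92 and sums of 182 and 84.7 CPM, as were all 4 mast cell genes, at -1.01 and sums of 16.7 and 6.39 CPM. Of 6 dermal papilla genes 4 were lower and none higher, with sums of 28.6 and 16.2 CPM, and 4 of 5 endothelial genes were lower, with sums of 64.3 and 41.6 CPM. In the follicle and gland, 4 of 6 bulge genes were lower and 1 higher, with sums of 728 and 601 CPM. All 6 were lower with the keratinocyte scaling, as were 67.2% of all tested genes. The sebaceous list had 4 lower genes of 6 and no higher one, with sums of 1082 and 753 CPM. Every gene of these lists had 10 or more counts in total. None of the 10 fibroblast genes passed edgeR's exact test, where 3 had an unadjusted p under 0.05.

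The basal and spinous keratinocyte lists moved in the other direction. All 7 basal genes were higher in replicate 2, with sums of 12212 and 17912 CPM, and all 7 spinous genes, with sums of 4403 and 8320 CPM. All 6 granular genes were higher, as were 7 of 8 junction genes, with 1 lower. The upper follicle list was split, with 3 of 5 genes higher and 2 lower. Scaled to the keratinocyte genes, 6 of the 7 spinous genes were still higher, while the basal list, which is part of that scale, had 3 higher and 3 lower. The junction list, also part of that scale, then had 1 higher and 4 lower. The granular list had 1 higher and 3 lower, and the upper follicle list 1 higher and 4 lower. The macrophage list had 5 of 9 genes higher and 2 lower, with sums of 9619 and 10611 CPM, and turned to 1 higher and 8 lower with the keratinocyte scaling. Over all tested genes that scaling gave 2.11% higher and 67.2% lower. The log2 ratios of Cyp26b1 at -0.82 and Dhrs9 at -0.62 lay within the fibroblast genes' range of -1.09 to -0.58, and both within that of the dermal papilla genes, -0.98 to 0.46. Dhrs9 also lay within the bulge (-0.73 to 0.28), sebaceous (-0.66 to 0.05) and endothelial (-0.74 to -0.39) ranges. Aldh1a2 at -1.23 and Stra6 at -1.38 lay within the mural cell range, -1.48 to -0.83, and the mast cell range, -1.71 to -0.90. These log2 ratios carry the pseudocount of 0.5 CPM, which draws genes of low CPM toward 0. Without it Stra6, 4.19-fold lower, lay beyond every mural cell gene, of which Rgs5 differed most at 2.84-fold. Dhrs9, 1.66-fold lower, then lay just beyond the sebaceous genes, of which Pparg differed most at 1.63-fold. Crabp2 at 0.39 and Aldh1a3 at 0.66 lay within the basal (0.05 to 0.68), junction (-0.12 to 0.70) and granular keratinocyte (0.26 to 0.67) ranges. Crabp2 also lay within the upper follicle (-0.55 to 0.55), macrophage (-0.14 to 0.54) and dermal papilla ranges. Aldh1a3 also lay within the spinous range, 0.46 to 1.49. Without the pseudocount Aldh1a3, 1.78-fold higher, lay above every basal, junction and granular gene, of which Pkp1 was highest at 1.62-fold. The ranges of several lists overlapped, so a ratio does not single out a cell type. The part of these cell types in the ratios of the 9 genes was not tested.

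The rest of the pathway was examined with 75 further genes in 9 groups by role, of which 74 were in the files and Prame was not. Of the 74, 51 reached 1 CPM in both libraries, beside 31.3% of all genes of the files, and 3 had no count in either (Cdx1, Rbp3 and Rdh7). By the binomial test 13 of 61 tested genes were higher in replicate 2 and 20 lower, beside 16.9% and 27.2% of all tested genes. The median log2 ratio was -0.02. TMM factors turned this split, giving 23 higher genes and 13 lower ones, beside 22.7% and 21.4% of all tested genes. The keratinocyte scaling gave 1 and 47, beside 2.11% and 67.2%. Directions in the groups below thus hold for scaling by total counts, and the shares over all genes are their background. None passed edgeR's exact test, and 4 had an unadjusted p under 0.05 there, beside 1672 of all 23690 tested genes.

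**Figure D4:**
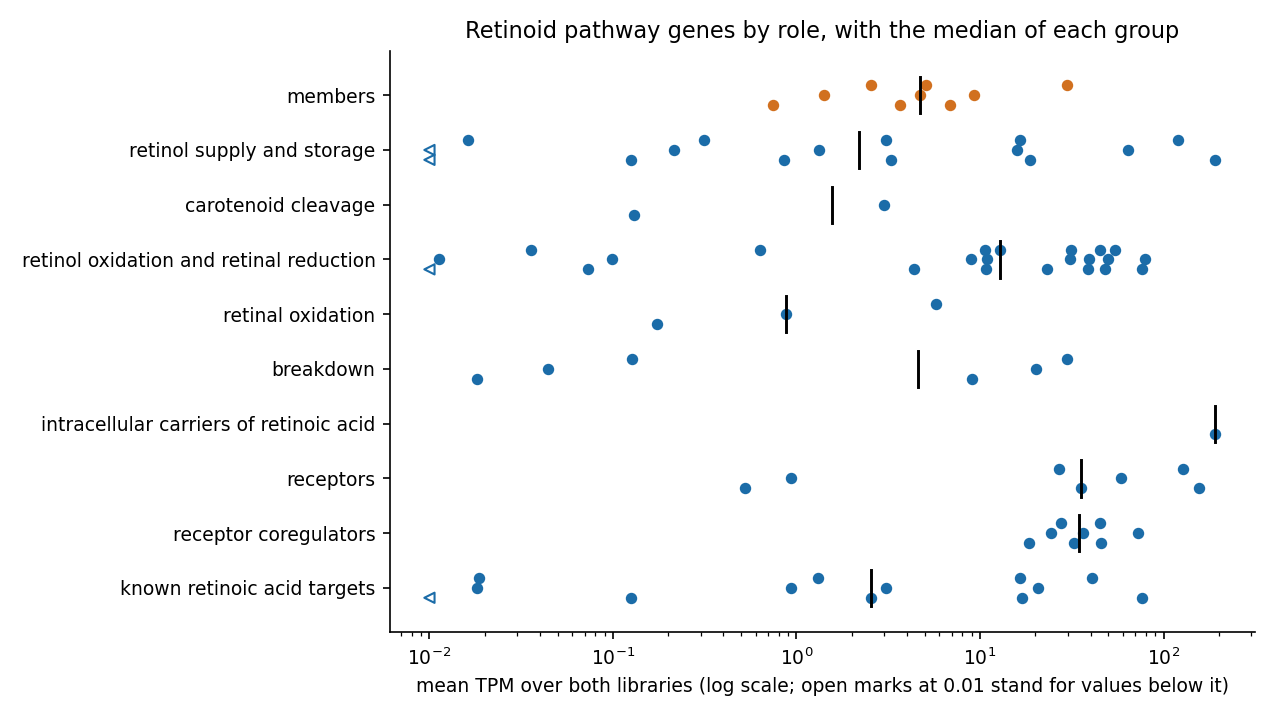
Mean TPM over both libraries (log axis) of the 9 genes (orange) and of the other pathway genes by role (blue), with the median of each group as a bar and open marks for values under 0.01. The 9 genes have a median of 4.68 TPM, the receptors 35.6 TPM and the receptor coregulators 34.5 TPM.

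Genes of lipid and lipoprotein uptake led the supply group. Of its 16 genes 8 reached 1 CPM in both libraries, and of 13 tested 1 was higher and 6 lower in replicate 2. The scavenger receptor Cd36 stood at 192 ± 99.1 TPM, the lipoprotein receptor Lrp1 at 121 ± 2.72 TPM and the lipase Lpl at 64.4 ± 9.81 TPM, and the photoreceptor retinoid carrier Rbp3 had no count. These 3 also act on other lipids and ligands. Among genes named after their values were seen, Rbp2, a cellular retinol-binding protein, had 96 counts in replicate 1 and 213 in replicate 2, or 9.65 and 23.5 TPM. It was the 1 gene of the group that was higher, at 2.43-fold (exact 95% interval 1.90 to 3.13, exact binomial test, adjusted p = 5.99e-13), and 0.341 by edgeR's exact test. Lrat, which esterifies retinol for storage, had 9 and 10 counts. Of the carotene-cleaving genes, Bco2 had 3.01 ± 0.568 TPM and Bco1 0.130 ± 0.0856 TPM, and neither passed.

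Several other enzymes that interconvert retinol and retinaldehyde were more abundant per length than Rdh10 and Dhrs9. Of 23 such genes 17 reached 1 CPM in both libraries, and their median was 12.8 TPM. Of 18 tested, 5 were higher and 7 lower in replicate 2. Adh7, a medium-chain alcohol dehydrogenase, stood at 79.7 ± 4.47 TPM and Dhrs3, which reduces retinaldehyde back to retinol, at 76.1 ± 5.36 TPM, with overlapping ranges, and Rdh12 followed at 54.5 ± 15.2 TPM. Rdh7 had no count. Dhrs3 exceeded Rdh10, which works in the opposite direction, 8.30-fold per length in replicate 1 and 8.05-fold in replicate 2. The proportion in replicate 2 was 0.970 times that in replicate 1, with an interval of 0.820 to 1.15. The folds per length rest on the deposited lengths, which for Rdh10 was 2295 bases against 3587 in GENCODE M21. An M21 length of Dhrs3 was not examined. Of 3 further aldehyde dehydrogenase genes listed beside the Aldh1a members, Aldh1a7 stood at 5.76 ± 1.52 TPM, Aldh1b1 at 0.878 ± 0.0795 TPM and Aldh8a1 at 0.174 ± 0.0338 TPM. Whether they oxidize retinaldehyde here was not tested.

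In the breakdown group, 3 of 6 genes reached 1 CPM in both libraries, and 3 were tested. Cyp2s1, an epithelial cytochrome P450, had 1577 and 661 counts and stood at 29.6 ± 15.5 TPM, Cyp1b1 had 1931 and 1051 counts and stood at 20.2 ± 7.19 TPM, and the glucuronosyltransferase Ugt1a6a stood at 9.05 ± 0.823 TPM. Cyp2s1 and Cyp1b1 were lower in replicate 2 by the binomial test, 2.18-fold and 1.68-fold, and both also act on substrates other than retinoids. Cyp26a1 was the lowest at 0.0182 ± 0.0258 TPM. Fabp5, the epidermal fatty acid-binding protein, which also carries retinoic acid, stood at 190 ± 5.76 TPM, above Crabp2 in each library, and did not pass.

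The receptors were led by Rarg at 155 ± 33.3 TPM, the main retinoic acid receptor of epidermis, and its partner Rxra at 127 ± 16.8 TPM. Rara followed at 58.9 ± 2.44 TPM, Ppard, a fatty acid receptor, at 35.6 ± 2.03 TPM and Rxrb at 27.1 ± 0.237 TPM. Rarb at 0.938 ± 0.0617 TPM and Rxrg at 0.523 ± 0.0145 TPM were lowest. Rarg, Rxra and Rara were higher in replicate 2 by the binomial test, and the other 4 did not pass. With TMM 4 were higher and none lower, and with the keratinocyte scaling none was higher and 5 of 7 were lower, near the 67.2% of all genes.

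All 8 coregulators found in the files passed 10 CPM in both libraries, with Ncoa3 at 72.3 ± 7.44 TPM and Ncor1 at 45.7 ± 0.0489 TPM, and Nrip1 lowest at 18.5 ± 0.930 TPM. Of them 3 were higher and 2 lower in replicate 2, while with TMM 5 were higher and none lower, and with the keratinocyte scaling all 8 were lower, beside 67.2% of all genes. Of 13 genes known to respond to retinoic acid, 5 of which also stand in another group, 9 reached 1 CPM in both libraries. Of 10 tested, none was higher and 4 were lower. Dhrs3 led them, followed by Rai14 at 40.6 ± 2.53 TPM and Rarres1 at 20.6 ± 2.14 TPM, and Cdx1 had no count. Rarb, a classical direct target, had 50 counts in each library.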

How the data were processed

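Bulk RNA sequencing of 2 libraries gave paired reads of 150 bases after ribosomal RNA removal, per the labels' protocols. Each deposited table pairs a raw count with a length in bases for every gene. The submitters' processing notes name featureCounts and mm39. The aligner, annotation and strand setting, and how multiply mapped reads were handled, are details not given in the sources used here, so reads of antisense genes may not be told apart. Samples were grouped by their titles.

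From the counts, CPM and TPM were computed with all counts as the total. Genes with 10 or more counts in total were tested with the exact binomial test (scipy 1.17.1). Log2 ratios used a pseudocount of 0.5 CPM. Ratio intervals are Clopper-Pearson 95% intervals, and those on a change of proportion are exact conditional intervals. They, and the floor of 3 counts, cover counting error only. With 1 group no quasi-likelihood test between libraries was possible. edgeR 4.0.16 gave TMM factors and the exact test, with the common dispersion of an intercept-only fit (coefficient of variation 23.1%), and DESeq2 1.42.0 gave size factors. Both tests were checked on simulated libraries that varied less than the real ones. The binomial check held counting error only, and the edgeR check used a dispersion set below that of the data. How the tests perform at the real spread was not checked. Transcript similarity came from GENCODE M21 on GRCm38 with blastn 2.17.0 and exact windows, and promoters from RefSeq on GRCm38.p6. No coordinates of build mm39 are given.

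The 9 genes and the lists were chosen with earlier results of these data known. Named are all 9 genes, the 3 highest and the lowest of each role group by TPM, all receptors, genes without a count, and Aldh1a7, while Rbp2, Lrat and Cyp26c1 were named after their values were seen. Some genes that this rule would name are not reported here.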

Additional observations from a re-analysis of the deposited data

How the results depend on the processing

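No paired analysis was possible because the series has 1 group. For the 9 genes, the number at the detection limit fell from 8 to 1 at 10 CPM, and was 8 or 9 with either library alone. The 2 higher genes became 0 with the keratinocyte scaling and 0 with edgeR's exact test, and the 4 lower genes became 0 with edgeR's exact test. The log2 ratio of Crabp2 turned to -0.083 with the keratinocyte scaling. For the other pathway genes, the 13 higher became 23 with TMM, 24 with DESeq2 size factors, 1 with the keratinocyte scaling and 0 with edgeR's exact test. The 20 lower became 13, 12, 47 and 0 in the same order. The median log2 ratio of the 9 genes was -0.096 with TMM, -0.090 with DESeq2 size factors and -0.635 with the keratinocyte scaling, in place of -0.168, and -0.132 without Stra6. All alternatives were planned except the M21 lengths and the median without Stra6, which were chosen after seeing the data. Depth limits Stra6, Crabp1 and Aldh1a3, which have under 100 counts in each library.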
